A study of Mus musculus with 34 samples.

Results

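The core circadian clock genes were examined here across all the livers of the series, at every probe whose name in the scanner files was Per1, Per2, Per3, Cry1, Cry2, Arntl, Clock, Npas2, Nr1d1 or Nr1d2. These 10 of 23439 named genes had 13 probes among the 55681 probes of the array, and 12 of the 13 were among the 31058 probes bright enough to be tested. Cy3-labelled cRNA from the liver of 1 mouse was hybridised to each of 34 one-colour arrays. The mice were males of the C57Bl/6J strain aged 14 weeks, kept in 12 h of light and 12 h of dark with chow at will, and killed at zeitgeber time 14, in the dark phase. They received fenofibrate, a drug that activates the nuclear receptor PPARA, at 100 mg per kg per day by gavage for 10 days, or the gum arabic vehicle (3%). The 8 groups were wild-type mice (WT, 4 on vehicle and 4 on fenofibrate), whole-body Ppara knockouts (KO, 3 and 5), liver Ppara knockouts (LKO, 4 and 5) and the matching liver wild-types (LWT, 4 and 5). The driver of the liver deletion, the deleted part of Ppara and the alleles that LWT mice carry are not given in the sources used here. The series text counts 36 livers, while its group sizes and the arrays both add up to 34.

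In this clock, ARNTL (BMAL1) pairs with CLOCK or its relative NPAS2, binds E-boxes and switches on the Per, Cry and Nr1d genes. PER and CRY proteins then block that pair, and the receptors REV-ERB alpha (Nr1d1) and REV-ERB beta (Nr1d2) repress Arntl and Clock, so that the genes of the loop peak at different times of day. In liver the loop times genes of lipid and glucose metabolism, and PPARA and the clock are known to act on each other. All livers came from the same time of day, so a shift of a rhythm in time and a change of its height cannot be told apart here.

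All 10 hepatocyte markers checked were above background on every array. Ppara itself read 22.5% to 33.2% of the WT level in KO livers on vehicle, and 47.3% to 55% of the LWT level in LKO livers, over 3 probes, whose place relative to the deletion is not known here. The mean level of 12 known PPARA targets was 6.91 to 7.45 in treated WT and LWT mice and 1.72 to 2.83 in treated KO and LKO mice. Between 50.6% and 63.2% of the probes of an array were well above background, and replicates of a group correlated at 0.978 to 0.989. The arrays lay on 5 slides, and the 3 arrays of slide 1 (replicate 1 of WT vehicle, KO vehicle and KO fenofibrate) stood apart. On them, probes of the lowest GC content read low, with medians of -0.92, -0.90 and -0.89 on the log2 scale against the other arrays of their groups.

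Where a gene had a pair of probes, their starts lay 3469 bases apart for Per1, 7610 for Cry2 and 685 for Nr1d2 in genome coordinates. They are named by array identifier because they did not always give the same answer, and for that reason the first 30 bases of each are printed here. All probes were 60 bases long.
Per1 probe A_55_P1970033: gtgttctcagctctaccctctaccaatgac
Per1 probe A_55_P2019327: ttagtgtttcagggcagtagaggtggccgg
Cry2 probe A_55_P1953708: tcctcctgagtgctggaaattcagatacga
Cry2 probe A_55_P2016540: tctcccacagtttgtttgtgaatatttacc
Nr1d2 probe A_52_P303891: ccagaactgttagtattgcttgtgatgctt
Nr1d2 probe A_55_P2148534: ctgtgaggggagctcagatagatgtatctt
On mm9 the Per1 probes lay at chr11:68923364-68923423 and chr11:68919895-68919954 on the plus strand. The first belongs to the reference transcript NM_011065 and the second to the cDNA AK081813, per the annotation columns of the scanner files. The Cry2 probes lay at chr2:92251417-92251476 (NM_001113333) and chr2:92243807-92243866 (NM_009963) on the minus strand. Those of Nr1d2 lay at chr14:19037253-19037312 (NM_011584) and chr14:19036568-19036627 (the cDNA BC096461), also on the minus strand, so that A_55_P2148534 was the one nearer the 3′ end.

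The other members had 1 probe each. Those of Per2 (A_51_P282760), Per3 (A_51_P258493), Cry1 (A_52_P420500), Clock (A_52_P334670), Arntl (A_55_P2408588) and Npas2 (A_52_P534749) were unbroken stretches at chr1:93313046-93313105, chr4:150379256-150379315, chr10:84594731-84594790, chr5:76641377-76641436, chr7:120457261-120457320 and chr1:39418941-39419000. The Nr1d1 probe (A_51_P223776) ran from 98630526 to 98631028 on chromosome 11, 503 bases for a probe of 60, so it spanned a gap in the genome. Whether a probe lies in coding sequence or a UTR was not read, because no annotation of this build was used.

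E-boxes are the sites through which ARNTL and CLOCK act, and the sequence before the start of the genes was therefore searched on both strands for CACGTG, for the E-box-like CACGTT, for the D-box TTANGTAA, for the nuclear receptor half-site AGGTCA and for the cAMP element TGACGTCA. RefSeq windows of GRCm38.p6, from 250 bases before to 50 after a start, were found for 9 of the 10 genes (13 windows, no window for Per2). The 250 bases before the start are shown for 4 of the genes with matches, for Per1 in 1 of its 2 windows, with the matching letters in capitals.
Per1 (chr11:69098699-69098948, plus strand): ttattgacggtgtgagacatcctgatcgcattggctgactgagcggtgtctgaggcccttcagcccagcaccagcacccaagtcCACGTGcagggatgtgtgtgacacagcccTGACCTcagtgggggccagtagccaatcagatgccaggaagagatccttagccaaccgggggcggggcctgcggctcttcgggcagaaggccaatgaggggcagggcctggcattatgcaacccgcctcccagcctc
Per3 (chr4:151044666-151044915, minus strand): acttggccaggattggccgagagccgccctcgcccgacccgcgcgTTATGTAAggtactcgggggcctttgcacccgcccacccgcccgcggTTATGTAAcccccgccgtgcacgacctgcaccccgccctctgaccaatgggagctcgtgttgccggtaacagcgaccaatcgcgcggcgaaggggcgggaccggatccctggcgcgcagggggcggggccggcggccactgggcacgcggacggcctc
Cry1 (chr10:85185055-85185304, minus strand): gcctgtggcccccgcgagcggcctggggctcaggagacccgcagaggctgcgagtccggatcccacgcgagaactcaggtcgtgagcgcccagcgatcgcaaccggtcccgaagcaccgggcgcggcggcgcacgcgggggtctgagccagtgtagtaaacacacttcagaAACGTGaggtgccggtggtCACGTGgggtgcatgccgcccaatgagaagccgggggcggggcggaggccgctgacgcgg
Nr1d1 (chr11:98775378-98775627, minus strand): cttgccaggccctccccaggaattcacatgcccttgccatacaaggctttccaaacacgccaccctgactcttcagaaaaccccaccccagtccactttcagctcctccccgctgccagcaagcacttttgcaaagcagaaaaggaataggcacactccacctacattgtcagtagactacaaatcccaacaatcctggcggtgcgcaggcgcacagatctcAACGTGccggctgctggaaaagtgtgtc
CACGTG stood at -166 in 1 of 2 Per1 windows and at -60 in Cry1, and 7.15% of all 32851 windows held it. The other Per1 window held none of the letters searched for. CACGTT, shown in capitals as its reverse complement, stood at -79 in Cry1, -166 in Cry2 and -28 in Nr1d1, against 4.68% of all windows. Per3 held the D-box 2 times, at -205 and -158 (2.32% of all windows). AGGTCA stood at -137 in the Per1 window above, as TGACCT, at -119 in 1 of 3 Clock windows, at -77 in Nr1d2 and at 31 after the start in 1 of 2 Arntl windows (16.3% of all windows). TGACGTCA was in none of the 13 windows (1.79% of all windows). No letters of CACGTG and CACGTT matches overlapped, and the matches describe letters, not binding.

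All levels below are log2 signals minus the 75th percentile of their array, and calls are limma calls at an adjusted p under 0.05 over the 31058 probes. Each level is that of 1 probe and is set against the same probe in other groups alone. Each array is a separate mouse by its label. The limma p-values judge a change against the spread between mice within groups, pooled over all 8 groups. That spread also holds differences between slides and the error of each array. In whole liver, fewer cells of a type and less RNA per cell cannot be told apart.

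Per1 was lower with fenofibrate in WT and LWT livers, and Cry2 was lower by less and less firmly. Per1, a light- and hormone-inducible period gene, gave 4.96, 4.81, 4.82 and 4.63 in the WT vehicle mice at A_55_P1970033. It gave 4.08, 4.02, 4.49 and 4.39 in the treated WT mice. Every treated WT mouse thus lay below every WT vehicle mouse. The change was -0.56 ± 0.12 (SE, limma adjusted p = 0.000832), or 67.7% of the vehicle level, and it was -0.58 within slide 3, the slide with both groups.

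The same held in LWT mice. On vehicle they read 4.81, 4.45, 4.46 and 4.57 at this Per1 probe, and on fenofibrate 4.38, 3.98, 3.91, 4.09 and 4.22. The groups did not overlap, and the fall was -0.46 ± 0.11 (limma adjusted p = 0.00438), with -0.67 and -0.37 within slides 2 and 3. In WT, 3 of the 12 clock probes were called, all lower, where 16.4% of all probes were called (7.65% higher and 8.71% lower). In LWT 2 of the 12 were called, both lower, where 13.7% of all probes were called (7.28% higher and 6.42% lower). The median change of the 12 probes was -0.32 in WT and -0.24 in LWT, against -0.0026 and -0.012 over all probes tested.

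**Figure D1:**
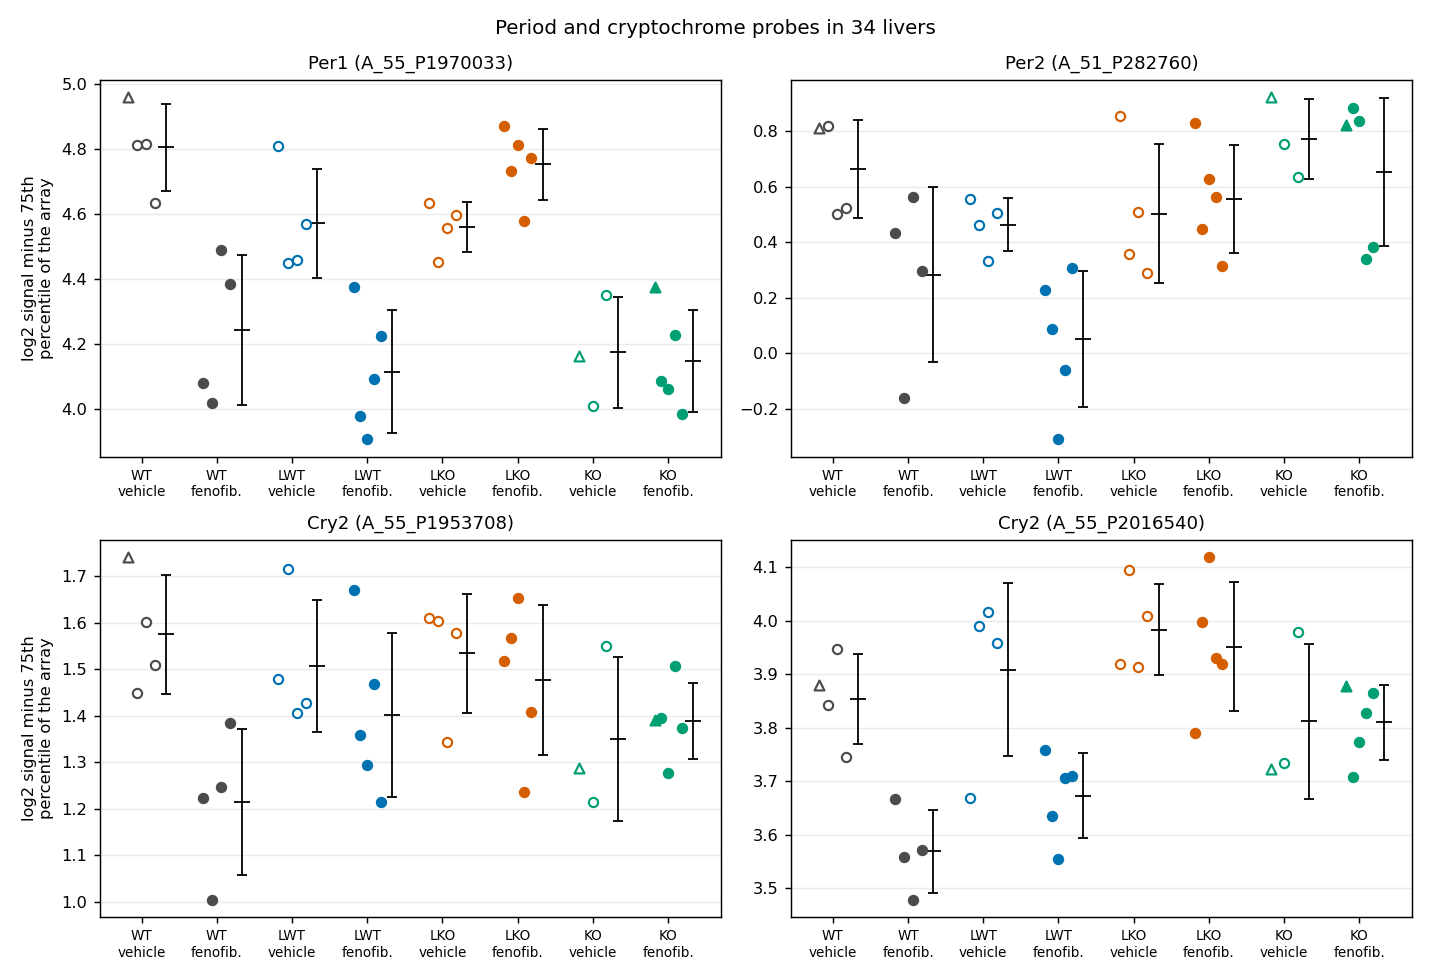
Levels of Per1, Per2 and both Cry2 probes in each of the 34 livers, as log2 signal minus the 75th percentile of the array, by genotype and treatment. Open points are vehicle, filled points fenofibrate, triangles the arrays of slide 1, and bars the mean ± SD of the group. At Per1 the treated WT mice (4.02 to 4.49) lie below all WT vehicle mice (4.63 to 4.96), while treated LKO mice (4.58 to 4.87) do not lie below LKO vehicle mice (4.45 to 4.64).

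In both Ppara knockouts no such change of Per1 was called. LKO mice read 4.64, 4.45, 4.56 and 4.60 on vehicle and 4.87, 4.73, 4.81, 4.58 and 4.77 on fenofibrate, a difference of 0.19 ± 0.11 (95% interval -0.03 to 0.42, limma adjusted p = 0.956). KO mice read 4.17, 4.01 and 4.35 on vehicle and 4.38, 4.09, 4.06, 4.23 and 3.99 on fenofibrate, a difference of -0.03 ± 0.12 (-0.27 to 0.22, limma adjusted p = 0.953). In both genotypes the vehicle and treated mice overlapped. No clock probe was called for the drug in either. The share of all probes called was 0% in LKO, with 1704 at an unadjusted p under 0.05, and 0.00966% in KO, with 3651 at an unadjusted p under 0.05.

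The difference between genotypes in the Per1 response was itself called. It was -0.65 ± 0.15 for LWT minus LKO (limma adjusted p = 0.0102), where 4.82% of all probes were called (2.68% higher and 2.14% lower), and -0.54 ± 0.17 for WT minus KO (limma adjusted p = 0.0420), where 7.95% were called (3.92% higher and 4.03% lower). The latter rested on single mice, since leaving out any 1 of 9 arrays ended the call (adjusted p up to 0.121). These were replicates 1 to 3 of WT vehicle, 1 and 2 of WT fenofibrate, 1 and 2 of KO vehicle and 1 and 4 of KO fenofibrate. Without the 3 arrays of slide 1 it was -0.42 with a limma adjusted p of 0.147, and with only the 4 groups compared the adjusted p was 0.128. No other clock probe was called in these differences, and none was called for WT minus LWT, where 0% of all probes were called and 1144 had an unadjusted p under 0.05.

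The second Per1 probe, A_55_P2019327, was dim and gave no call. Its level ran from -4.54 to -2.91 over the 34 livers, above background on 29 of them. Its change with fenofibrate was -0.04 ± 0.23 in WT, where the first probe fell by 0.56, and -0.53 ± 0.21 in LWT (limma adjusted p = 0.929 and 0.104). The 95% intervals of the 2 probes in WT, -0.80 to -0.33 and -0.50 to 0.42, overlapped, and the difference between the probes was not tested.

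Cry2, a cryptochrome that blocks the ARNTL and CLOCK pair, fell by less. At A_55_P2016540 it read 3.88, 3.84, 3.95 and 3.74 in WT vehicle mice and 3.67, 3.56, 3.48 and 3.57 in treated WT mice, with no overlap. The change was -0.28 ± 0.08 (limma adjusted p = 0.0156), and -0.33 within slide 3. At A_55_P1953708 it read 1.74, 1.45, 1.60 and 1.51 on vehicle and 1.22, 1.01, 1.25 and 1.38 on fenofibrate, again with no overlap, and the change was -0.36 ± 0.11 (limma adjusted p = 0.0184). With only these 2 groups in the limma fit both calls were lost (adjusted p = 0.0509 and 0.0573), and with slide as a block the call at A_55_P1953708 was lost (-0.29, 0.0740). Each was also lost without either of 2 mice, at A_55_P2016540 WT vehicle replicate 3 (0.0543) or WT fenofibrate replicate 3 (0.0546), and at A_55_P1953708 WT vehicle replicate 1 (0.0781) or WT fenofibrate replicate 2 (0.0889).

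In LWT the A_55_P2016540 probe read 3.67, 3.99, 4.02 and 3.96 on vehicle and 3.76, 3.63, 3.56, 3.71 and 3.71 on fenofibrate. Replicate 1 of LWT vehicle lay among the treated mice and the other 3 above them. The change was -0.24 ± 0.08 (limma adjusted p = 0.0407), but -0.01 within slide 2 and -0.31 within slide 3, and it was not called with slide as a block (-0.20, limma adjusted p = 0.111). Leaving out any 1 of 7 of the 9 mice also ended this call, with adjusted p from 0.0502 to 0.142. Those 7 were all but replicate 1 of each group. The other Cry2 probe gave -0.11 ± 0.10 in LWT (limma adjusted p = 0.569). In LKO and KO the Cry2 changes lay between -0.06 and 0.04, with no call. The 10 hepatocyte markers moved with the same groups. Their mean level ran from 9.28 to 9.43 in WT vehicle and 9.10 to 9.28 in treated WT mice, and from 9.32 to 9.62 and 9.14 to 9.44 in LWT, with medians over the markers of -0.21 and -0.20 and 3 and 2 of 10 called lower. In LKO the mean level ran from 9.37 to 9.52 and 9.28 to 9.54, and in KO from 9.38 to 9.53 and 9.46 to 9.60, with none of 10 called. The 1 measured adipocyte marker of 4 was also higher with the drug, at -3.45 to -2.46 and 1.54 to 3.86 in WT and -2.27 to 0.17 and 0.53 to 2.87 in LWT. In LKO it ran from -6.40 to -1.45 and -5.07 to -4.09, and in KO from -6.01 to -4.39 and -5.33 to 0.74. This is the reading of 1 gene, which was not above background on all arrays, and not a measure of adipocytes. The part of these markers in the Per1 and Cry2 results was not tested.

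Per2, the period gene that answers most directly to systemic cues, read 0.81, 0.82, 0.50 and 0.52 in WT vehicle mice and 0.43, -0.16, 0.56 and 0.30 in treated WT mice. In LWT it read 0.55, 0.46, 0.33 and 0.50 on vehicle and 0.23, 0.09, -0.31, -0.06 and 0.31 on fenofibrate. The LWT groups did not overlap and the WT groups did. The changes were -0.38 ± 0.16 and -0.41 ± 0.15, and neither was called (limma adjusted p = 0.101 and 0.0655). The mean drug effect over WT and LWT, which uses 17 mice, was called for Per2 at -0.40 ± 0.11 (limma adjusted p = 0.00634). In LKO and KO the Per2 changes were 0.05 ± 0.15 and -0.12 ± 0.16, and the differences from LWT (-0.47 ± 0.21) and WT (-0.26 ± 0.23) were not called.

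For this mean effect 5 of 12 clock probes were called, all lower, where 27.8% of all probes were called (13.2% higher and 14.5% lower). Beside Per2 they were Per1 (-0.51 ± 0.08 at A_55_P1970033), Cry2 (-0.26 ± 0.06 at A_55_P2016540 and -0.23 ± 0.07 at A_55_P1953708) and Nr1d2 (-0.28 ± 0.10 at A_52_P303891, limma adjusted p = 0.0358). The Nr1d2 call was lost in limma fits without the arrays of slide 1 (-0.26, adjusted p = 0.0557), with slide as a block (-0.26, 0.123) and without any 1 of 7 mice (adjusted p from 0.0591 to 0.0967). These were replicates 1 and 2 of WT vehicle and of LWT vehicle, 2 of WT fenofibrate and 3 and 4 of LWT fenofibrate. The A_55_P1953708 call was lost with slide as a block (-0.18, limma adjusted p = 0.104) and without WT fenofibrate replicate 2 (0.0510).

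The positive arm, Arntl and Clock, gave no call for the drug in any genotype, and neither did Nr1d1 and Per3 of the repressing arms. Arntl, the non-redundant partner of the activator pair, changed by 0.25 ± 0.63 in WT, -0.44 ± 0.60 in LWT, -0.21 ± 0.60 in LKO and 0.24 ± 0.65 in KO. The 95% interval in WT, -1.05 to 1.55, is wide, and Arntl differed widely between mice of the same group. Clock, whose protein pairs with ARNTL, changed by 0.45 ± 0.24 in WT and -0.06 ± 0.23 in LWT. Nr1d1, the REV-ERB alpha gene, changed by -0.43 ± 0.39 in WT, 0.04 ± 0.37 in LWT, 0.72 ± 0.37 in LKO and 0.28 ± 0.40 in KO. Per3, a period gene not needed for rhythm, changed by -0.57 ± 0.37 in WT and -0.24 ± 0.35 in LWT. These WT values moved with single mice. Without WT vehicle replicate 1, Clock gave 0.21, Per3 -0.28, Nr1d1 -0.26 and Arntl -0.25, a change of sign for Arntl. Without WT fenofibrate replicate 2, Nr1d1 gave -0.09, Per3 -0.37 and Arntl -0.12, and without WT vehicle replicate 4 Nr1d1 gave -0.67 and Arntl 0.67.

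**Figure D2:**
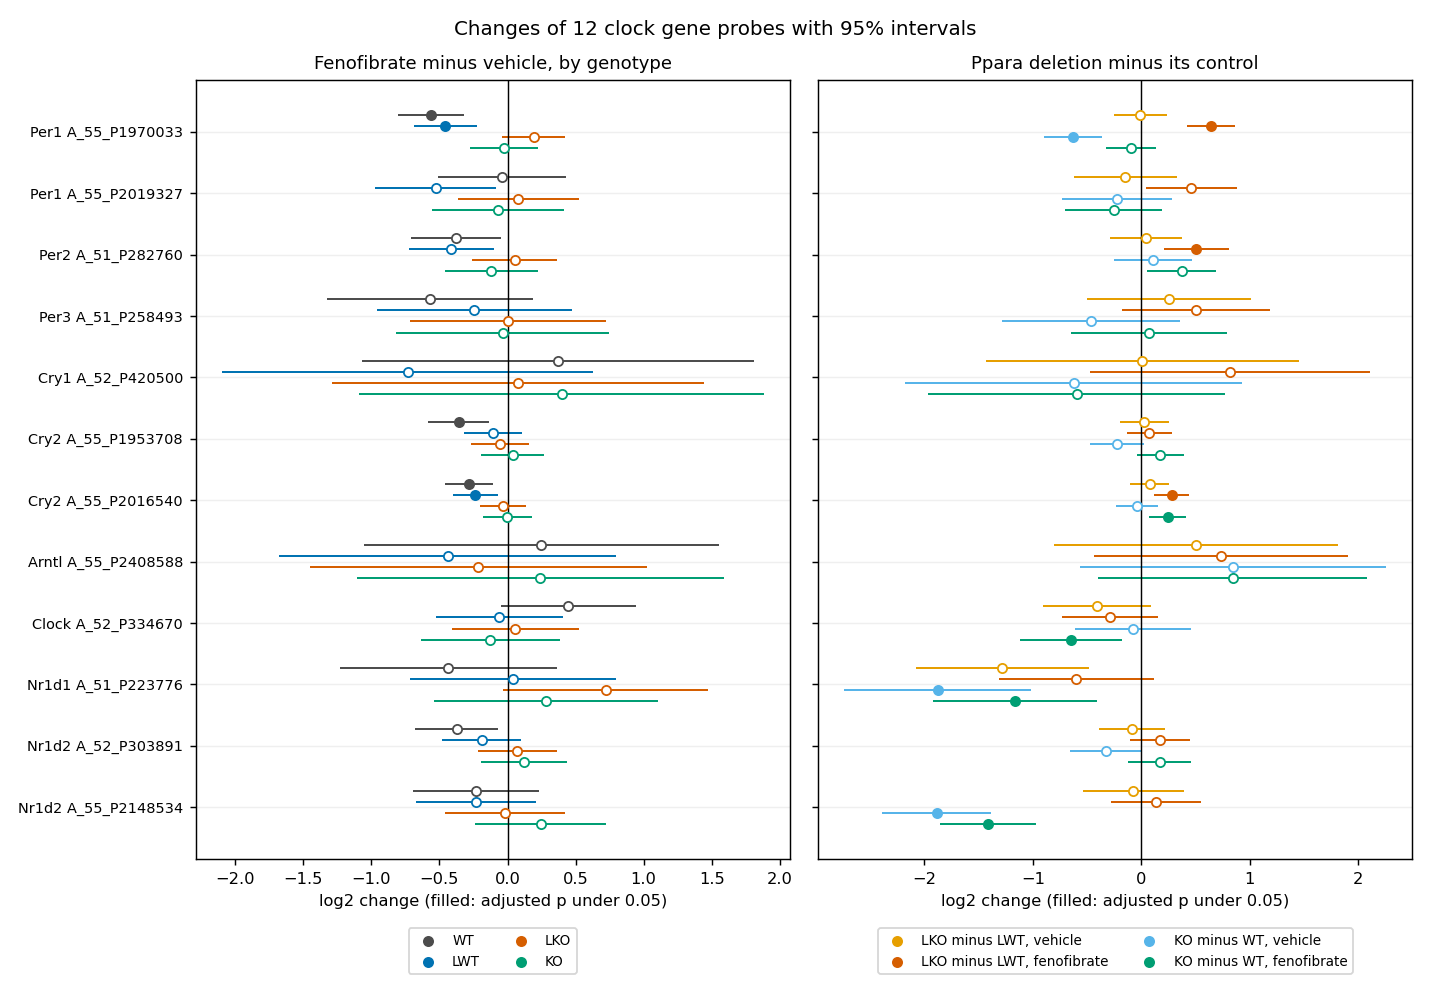
Log2 changes of the 12 tested clock probes, with 95% intervals from limma. The left panel gives fenofibrate minus vehicle in each genotype and the right panel each Ppara deletion minus its control, and filled points have an adjusted p under 0.05. Per1 at A_55_P1970033 is lower with the drug in WT (-0.56) and LWT (-0.46), and Nr1d2 at A_55_P2148534 is lower in KO than in WT (-1.89 on vehicle, -1.41 on fenofibrate) while LKO minus LWT gives -0.08 and 0.13.

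Nr1d1 was lower in KO than in WT livers. On vehicle Nr1d1 read 0.41, -0.0039, -0.04 and -0.83 in WT and -0.97, -2.72 and -2.28 in KO. No KO mouse reached the lowest WT mouse, and the change was -1.88 ± 0.42 (limma adjusted p = 0.00119), or 27.2% of the WT level. On vehicle KO and WT shared slide 1 alone, with 1 mouse of each, and there the change was -1.39. On fenofibrate WT mice read -0.52, -1.57, 0.16 and -0.26 and KO mice -1.97, -0.94, -1.08, -2.50 and -2.06, so that the groups overlapped. That change was -1.16 ± 0.37 (limma adjusted p = 0.0123), -0.80 within slide 5, and not called without replicate 3 of WT fenofibrate (-0.93, limma adjusted p = 0.0656).

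In the liver knockout Nr1d1 was near the threshold. LWT vehicle mice read -0.99, -0.53, -0.94 and -1.65, and LKO vehicle mice -2.12, -2.51, -2.15 and -2.46. Every LKO mouse lay below every LWT mouse. The change was -1.28 ± 0.39, or 41.2% of the LWT level (limma adjusted p = 0.0532), and it was -1.13, -1.39 and -1.37 within slides 2, 3 and 4. The labels give replicate numbers and name no pairs. Same-numbered mice deviated together in this comparison (r of 0.113 to 0.294), and 3 of the 4 pairs shared a slide. With replicate number as a block the call was made (-1.28 ± 0.36, limma adjusted p = 0.0353). The call was made in 7 other alternative settings as well, with limma adjusted p from 0.00372 to 0.0481. It was missed in the remaining 6, slide as a block among them, with limma adjusted p up to 0.112. The lowest adjusted p was that with Arntl as a covariate, a fit chosen after seeing the data. Over the 14 alternative settings the change ran from -1.29 to -0.69, and it was -0.89 in the authors' value table. Without LWT vehicle replicate 4 the change was -1.49 (limma adjusted p = 0.0391). Leaving out any 1 of 8 mice of other groups also brought the adjusted p to between 0.0288 and 0.0481. All other fits without 1 array missed the call, with a limma adjusted p of up to 0.153, reached without LWT vehicle replicate 2. Over all fits without 1 array the change ran from -1.49 to -1.11. None of the 12 clock probes was called here in the fit without the block, by limma, where 4.42% of all probes were called (1.2% higher and 3.23% lower) and 4446 had an unadjusted p under 0.05. Treated LKO mice read -1.34, -0.89, -1.44, -1.87 and -2.39 and treated LWT mice -0.58, -0.83, -1.42, -1.24 and -0.88, a difference of -0.60 ± 0.34 (limma adjusted p = 0.205). The mean of 7 measured genes that answer to temperature or feeding was also lower in LKO (1.93 to 2.03) than in LWT vehicle mice (2.05 to 2.37), with 1 of 7 called lower, and its part in the Nr1d1 value was not tested.

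Between the controls, LWT minus WT on vehicle was -0.91 ± 0.39 for Nr1d1, which was not called (limma adjusted p = 0.363). No clock probe was called between LWT and WT on vehicle (0.56% of all probes called, 3292 at an unadjusted p under 0.05) or on fenofibrate (0.39%, 2549 at an unadjusted p under 0.05). Ordered by group mean, Nr1d1 ran from WT vehicle (-0.11 ± 0.52, SD) and WT fenofibrate (-0.55 ± 0.74) through LWT fenofibrate (-0.99 ± 0.34), LWT vehicle (-1.03 ± 0.46), LKO fenofibrate (-1.59 ± 0.57), KO fenofibrate (-1.71 ± 0.67) and KO vehicle (-1.99 ± 0.91) to LKO vehicle (-2.31 ± 0.20). Neighbours in this order differed by no more than the larger of their SDs.

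**Figure D3:**
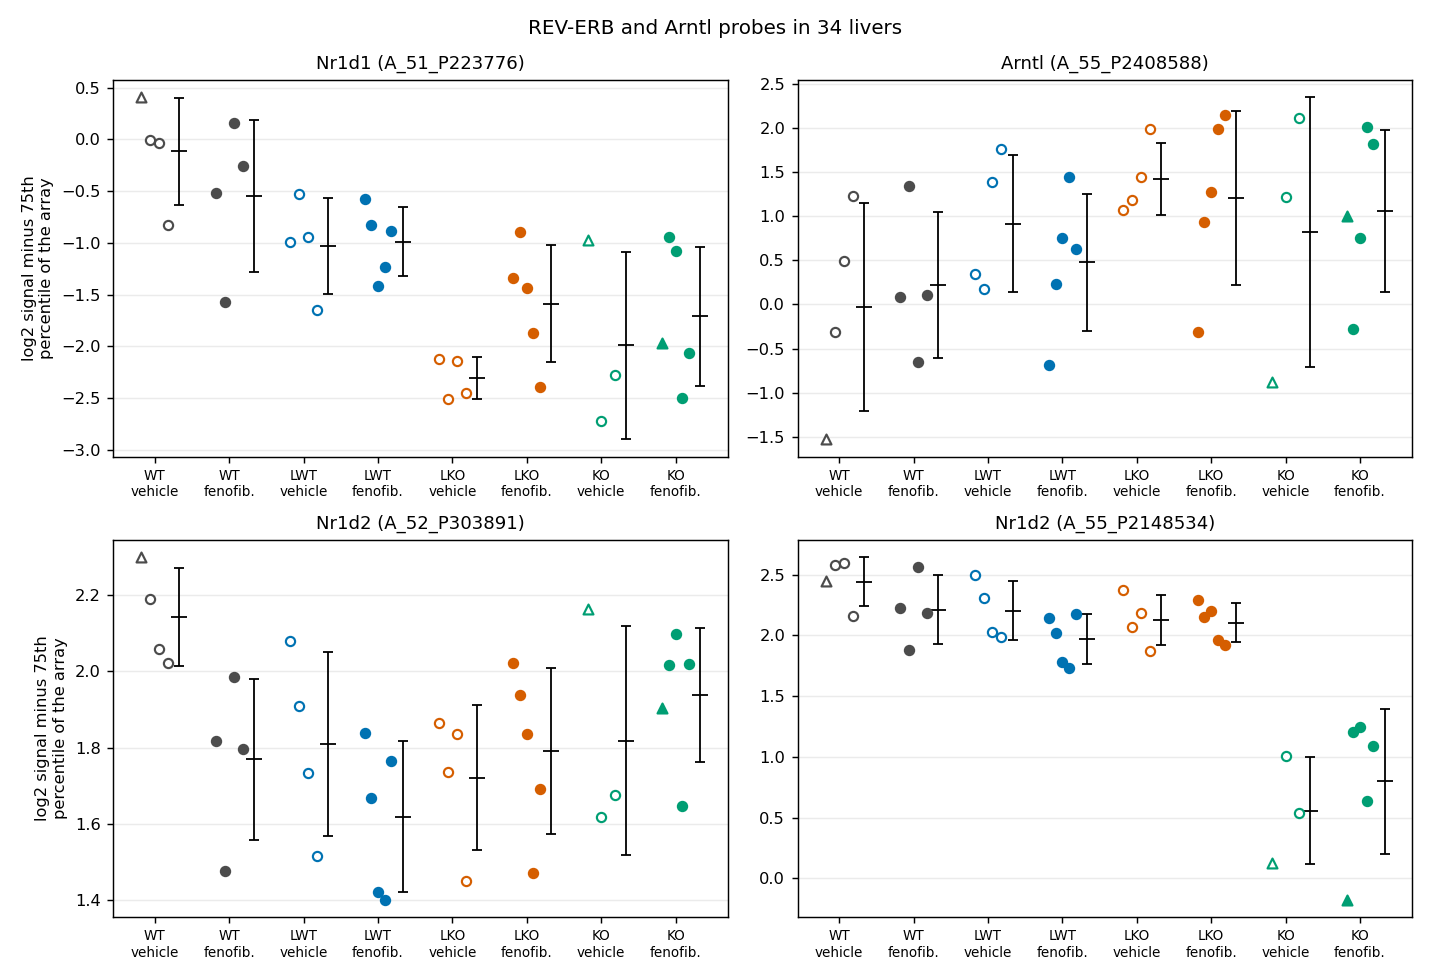
Levels of Nr1d1, Arntl and both Nr1d2 probes in the 34 livers, as log2 signal minus the 75th percentile of the array, with symbols and bars as in the plot of Per and Cry levels (open vehicle, filled fenofibrate, triangles slide 1, bars mean ± SD). At Nr1d2 probe A_55_P2148534 the 8 KO mice lie between -0.18 and 1.25 and the other 26 mice between 1.73 and 2.59, while the same mice overlap at A_52_P303891.

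Nr1d2, the REV-ERB beta gene, gave a different answer at each probe in KO mice. At A_55_P2148534 the WT vehicle mice read 2.45, 2.58, 2.59 and 2.16 and the KO vehicle mice 0.13, 1.00 and 0.54. The treated WT mice read 2.23, 1.88, 2.57 and 2.18 and the treated KO mice -0.18, 1.21, 1.25, 0.64 and 1.09. No KO mouse reached any mouse of the other genotypes. The change was -1.89 ± 0.24 on vehicle (27% of WT, limma adjusted p = 8.23e-07) and -1.41 ± 0.21 on fenofibrate (37.5%, limma adjusted p = 3.56e-06). It was -1.08 within slide 5 on fenofibrate. On vehicle it was -2.32 within slide 1, the only slide with both genotypes and 1 mouse of each.

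At A_52_P303891, 685 bases away, KO and WT overlapped. The WT vehicle mice read 2.30, 2.19, 2.06 and 2.02 and the KO vehicle mice 2.16, 1.62 and 1.68, a change of -0.32 ± 0.16 (95% interval -0.65 to -0.0012, limma adjusted p = 0.137). With replicate number as a block this change was called (-0.39 ± 0.12, limma adjusted p = 0.0201), though the labels name no pairs. Of the 3 same-numbered pairs here, the 1 with the highest correlation (0.414) lay on slide 1. The change was also called in the authors' value table (-0.42, limma adjusted p = 0.0337) and without KO vehicle replicate 1 (-0.50, 0.0294). On fenofibrate the change was 0.17 ± 0.14. The interval at the other probe on vehicle, -2.38 to -1.39, did not reach this one. The low reading in KO mice is thus a measurement of 1 of the 2 probes, and what sets them apart was not tested.

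In LKO livers neither Nr1d2 probe was called. A_55_P2148534 read 2.5, 2.31, 2.03 and 1.98 in LWT and 2.37, 2.07, 2.19 and 1.88 in LKO on vehicle, a difference of -0.08 ± 0.22 (-0.53 to 0.38). The KO effect minus the LKO effect on vehicle was -1.81 ± 0.33 (limma adjusted p = 0.000497), where 6.33% of all probes were called (2.87% higher and 3.46% lower), and it kept its call in all 14 alternative settings. Per1 at A_55_P1970033 also differed in this way, by -0.62 ± 0.17 (limma adjusted p = 0.0237). That call was lost without the arrays of slide 1 (-0.56, limma adjusted p = 0.0530), without the filter on dim probes (adjusted p = 0.0598), and without 1 of WT vehicle replicate 1, LWT vehicle replicates 2 or 3 or KO vehicle replicate 2 (adjusted p from 0.0508 to 0.0740).

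Per1 was low in KO livers already on vehicle. With the values given above, KO minus WT was -0.63 ± 0.12 on vehicle (64.6% of WT, limma adjusted p = 0.000363), where every KO mouse lay below every WT mouse. Within slide 1, the only slide with both on vehicle and 1 mouse of each, it was -0.80. On fenofibrate KO minus WT was -0.10 ± 0.11, with no call. LKO minus LWT was -0.01 ± 0.12 on vehicle and 0.64 ± 0.10 on fenofibrate (156% of LWT, limma adjusted p = 1.59e-05), and the latter was 0.70, 0.68 and 0.48 within slides 2, 3 and 5. By group mean, Per1 was highest in WT vehicle (4.81 ± 0.13, SD), then LKO fenofibrate (4.75 ± 0.11), LWT vehicle (4.57 ± 0.17), LKO vehicle (4.56 ± 0.08), WT fenofibrate (4.24 ± 0.23), KO vehicle (4.18 ± 0.17), KO fenofibrate (4.15 ± 0.16) and LWT fenofibrate (4.12 ± 0.19). The lower 4 of these 8 groups differed among themselves by less than their SDs. Between LKO vehicle and WT fenofibrate the means stepped by more than either SD.

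In KO against WT on vehicle 3 of 12 clock probes were called, Per1, Nr1d1 and 1 of Nr1d2, all lower, where 25.1% of all probes were called (10.9% higher and 14.2% lower). On fenofibrate 4 were called, 3 lower and 1 higher, where 38.2% of all probes were called (18.8% higher and 19.4% lower). The higher one was Cry2 at A_55_P2016540 (0.24 ± 0.08, limma adjusted p = 0.0146), a call lost without WT fenofibrate replicate 3 (0.0556). Per2 was higher by 0.37 ± 0.15 and just missed the threshold (limma adjusted p = 0.0511). It was called in 7 of 14 alternative settings and in 8 of the fits without 1 array, and the adjusted p over both kinds of fit ran from 0.000668 to 0.274. Clock was lower, at 0.42, 0.85, 0.23 and 0.20 in treated WT mice and -0.39, -0.66, -0.38, 0.20 and 0.11 in treated KO mice. The Clock groups overlapped by a small margin, and the change of -0.65 ± 0.23 (limma adjusted p = 0.0232) was lost with slide as a block (-0.45, adjusted p = 0.113), in the authors' value table (-0.36, adjusted p = 0.103) and without KO fenofibrate replicate 2 (0.0692) or WT fenofibrate replicate 2 (0.106).

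Marker lists of other cells were read in KO against WT as well. Of all probes 25.1% were called on vehicle (10.9% higher and 14.2% lower) and 38.2% on fenofibrate (18.8% higher and 19.4% lower). On vehicle the mean of 7 Kupffer cell markers ran from 3.19 to 3.84 in WT and 3.44 to 5.39 in KO mice, so that they overlapped, with 1 called higher. That of 7 lymphocyte and neutrophil markers ran from -0.98 to -0.71 in WT and -0.50 to 0.41 in KO, with 3 called higher and 1 lower. The median change over these 7 markers was -0.17, against the direction of their mean. The 7 temperature and feeding genes averaged 2.23 to 2.29 in WT and 1.80 to 2.00 in KO, with 1 called higher and 1 lower. Of the 6 endothelial markers 2 were called higher and 2 lower on vehicle. On fenofibrate the 5 cholangiocyte markers averaged -1.68 to -0.70 in WT and -2.53 to -1.97 in KO, with 4 called lower, and the 6 endothelial markers 2.54 to 2.93 and 2.87 to 3.01, with 2 called higher. Of the 10 hepatocyte markers 3 were called higher and 0 lower on vehicle, and 4 higher and 0 lower on fenofibrate. Of the 7 temperature and feeding genes 1 was called higher and 3 lower on fenofibrate. The part of these lists in the KO results was not tested.

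In LKO against LWT on fenofibrate 3 of 12 were called, all higher, where 30.1% of all probes were called (14.9% higher and 15.2% lower). These were Per1, Per2 (0.51 ± 0.14, limma adjusted p = 0.00654) and Cry2 at A_55_P2016540 (0.28 ± 0.07, limma adjusted p = 0.00405). Treated LKO mice read 0.83, 0.45, 0.63, 0.56 and 0.31 for Per2, and each lay above each treated LWT mouse. Within slides 2, 3 and 5 the Per2 difference was 0.77, 0.37 and 0.37. This comparison shares its treated LWT mice with the drug effect in LWT, so the same mice enter both. Of the 10 hepatocyte markers 2 were called higher here and 0 lower, and of the 6 stellate markers 2 higher and 0 lower. Lower calls were made for 1 of 6 endothelial and 1 of 7 lymphocyte and neutrophil markers. Of the 7 temperature and feeding genes 1 was called higher and 2 lower. The part of these lists in the Per1, Per2 and Cry2 values was not tested.

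Cry1, a cryptochrome that peaks late in the daily cycle, could not be read well. Its probe holds 14 G or C among 60 bases and read -5.19, -6.19 and -6.01 on the 3 arrays of slide 1, against -4.11 to -1.94 on the other 31. It was above background on 28 of 34 arrays. No comparison was called for it, and its 95% intervals between 2 groups reached 1.55 either side of the estimate. With slide as a block, limma called it lower with fenofibrate in LWT (-0.70 ± 0.23, adjusted p = 0.0441) and higher in treated LKO than treated LWT mice (0.86 ± 0.20, adjusted p = 0.00159). Npas2, the relative of Clock, was above background on 1 treated WT and 1 treated KO array alone, with levels of -6.86 to -4.48, and was not tested.

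The members also differed in how far mice of the same group lay apart. The pooled SD within groups was 0.94 for Arntl, 0.57 for Nr1d1, 0.54 for Per3 and 0.35 for Clock, as against 0.16 for Per1 at A_55_P1970033 and 0.10 for Cry2 at A_55_P2016540. These SDs are on the log2 scale of each probe, and each includes the measurement error of that probe. Arntl read -1.53, -0.31, 0.49 and 1.23 in the WT vehicle mice against -1.53 to 2.15 over all 34 livers. In LKO vehicle mice it read 1.07, 1.19, 1.44 and 1.98.

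These deviations ran together. Each member was represented by its brightest probe, and its deviations from the group mean were correlated with those of every other member over the 34 mice, with permutation within groups (two-sided, 100000 resamples, adjusted over 45 pairs). Of the 45 pairs 14 were called, 7 positive and 7 negative. Mice with more Arntl than their group had more Clock, with r = 0.93 (rho = 0.91), 0.94 without the 2 mice farthest from the Arntl median, and 0.84 to 0.97 within slides 2 to 5 (n = 7 or 8). The permutation p of both r and rho was 1e-05, the smallest that these resamples can give (adjusted p = 9e-05).

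Mice with more Arntl had less Nr1d1 (r = -0.83, rho = -0.85, permutation p = 1e-05 for both, adjusted p = 9e-05). Without the 2 farthest mice r was -0.82, and within slides it ran from -0.92 to -0.62. Arntl and Per3 ran apart likewise (r = -0.80, rho = -0.76, permutation p = 4e-05 for both, adjusted p = 0.000257; -0.74 without the 2 farthest mice and -0.89 to -0.64 within slides). So did Arntl and Per2 (r = -0.70, rho = -0.73, permutation p = 1e-05 and 2e-05, adjusted p = 9e-05; -0.71 without the 2 farthest mice and -0.79 to -0.48 within slides). Per3 and Nr1d1 deviated together among mice (r = 0.84, rho = 0.80, permutation p = 1e-05 and 2e-05, adjusted p = 9e-05). Their r was 0.81 without the 2 farthest mice and 0.77 to 0.94 within slides.

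**Figure D4:**
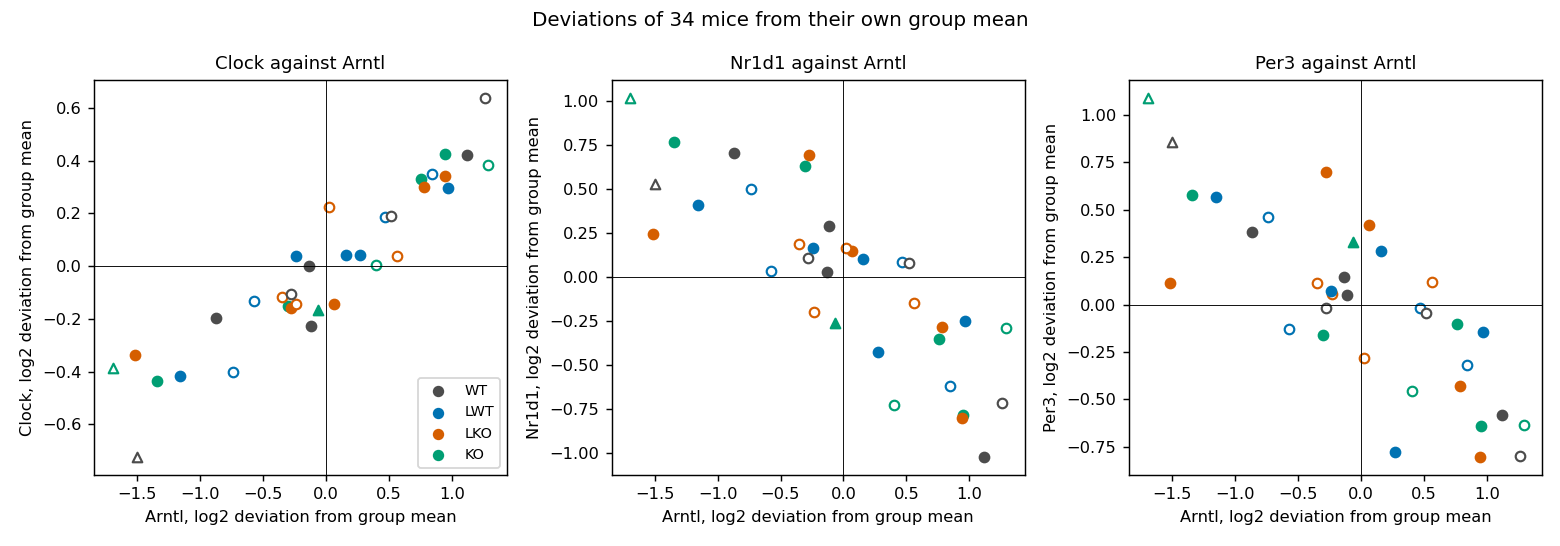
Deviations of 34 mice from the mean of their own group, on the log2 scale, for Clock, Nr1d1 and Per3 (vertical axes) against Arntl (horizontal axis). Colours give the genotype, open points vehicle, filled points fenofibrate and triangles slide 1. Clock rises with Arntl (r = 0.93) while Nr1d1 (r = -0.83) and Per3 (r = -0.80) fall.

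Per1 and Cry2 stood more to the side. Cry2 was in no called pair, and its r with Arntl was 0.30 (permutation p = 0.157, adjusted p = 0.272). For Per1 the r with Arntl was -0.36 (rho = -0.32, permutation p = 0.0698 and 0.106, adjusted p = 0.165 for r). Per1 was called with Per2 (r = 0.48, rho = 0.47, permutation p = 0.0149 and 0.0150, adjusted p = 0.0480). Within slides the Per1 and Per2 relation ran from -0.17 to 0.77, so it did not keep its sign. Per1 was called with Cry1 by r (-0.48, permutation p = 0.00748, adjusted p = 0.0259) but not by rho (-0.39, permutation p = 0.0294, adjusted p = 0.0735). This r was -0.49 without the 2 farthest mice, -0.06 with slide effects taken out and -0.47 to 0.15 within slides, so the relation did not hold within slides. Nr1d2 entered at A_55_P2148534, which read -0.65 and -1.22 against group mates on the KO arrays of slide 1. Its r with Arntl was -0.31 (permutation p = 0.153, adjusted p = 0.272), and rho was -0.48 (permutation p = 0.0160, adjusted p = 0.0451). This r was -0.79 with slide effects taken out, -0.81 without slide 1 and -0.81 to -0.55 within slides. The 9 pairs with Npas2 compare readings at background. Of the 14 called pairs, 11 kept their sign within each of slides 2 to 5, and 19 pairs were called once slide effects were taken out as well.

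**Figure D5:**
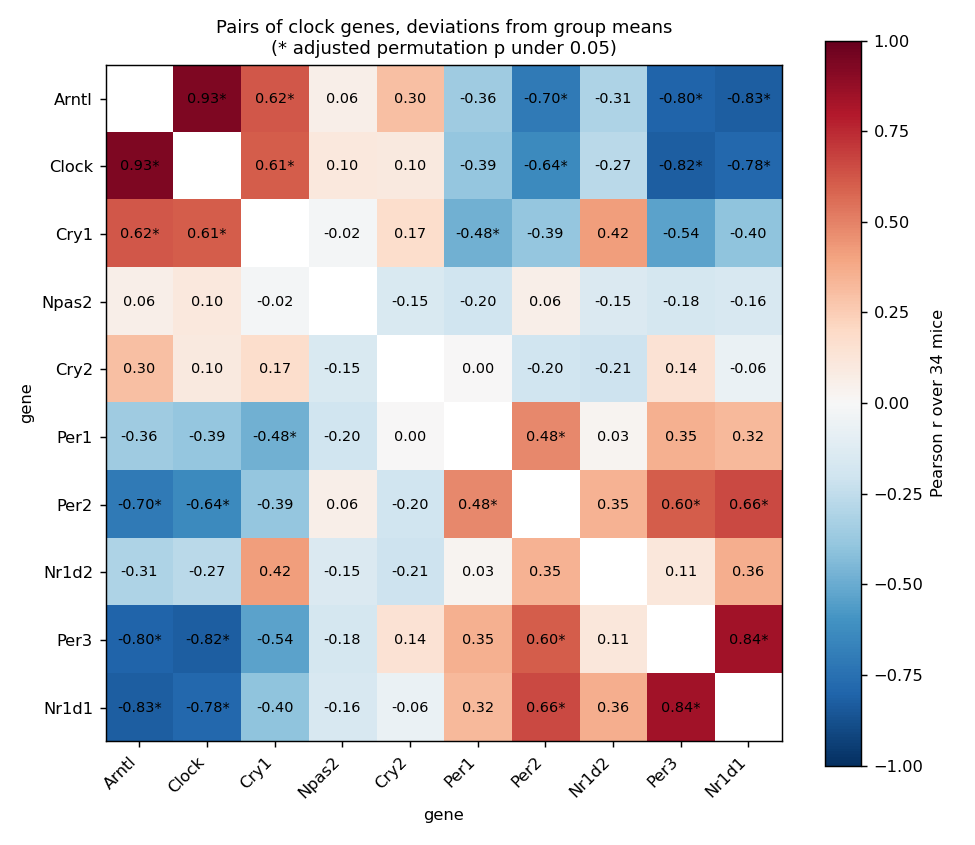
Pearson correlations between the 10 clock genes over the deviations of 34 mice from their group means, with blue for negative and red for positive values, and an asterisk for an adjusted permutation p under 0.05. Arntl, Clock and Cry1 form a positive block (0.61 to 0.93) and Per2, Per3 and Nr1d1 another (0.60 to 0.84), with negative values from Arntl and Clock to Per2, Per3 and Nr1d1 (-0.83 to -0.64). Nr1d2 is shown at A_55_P2148534, where r with Arntl is -0.31, and -0.79 with slide effects taken out.

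Genes outside the loop followed it too. Among 18166 named probes above background on all 34 arrays, the deviations most like those of Arntl were those of Chka (r = 0.96), Pxmp4 (0.95), Tubb2a (0.94), Cdkn1a (0.93) and Clpx (0.91). The most opposed were Dbp, a D-box factor of the clock output (-0.97), Auh (-0.91) and Slc2a5 (-0.91). For Nr1d1 the highest included Ngef (0.87), Dbp (0.86), Bco2 (0.82) and Hdac11 (0.81), and the lowest included Pxmp4 (-0.82) and Tubb2a (-0.82). For Per2 they were Azin1 (0.77), D7Wsu130e (0.73), Dbp (0.72), Tm4sf1 (0.72) and Lrat (0.71), with Ccng2 (-0.79), Tab2 (-0.78) and Dtx4 (-0.77) lowest. These are descriptions over 34 mice that share 5 slides and were picked as extremes, so no test goes with them.

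Other genes of the clock were counted from 2 lists, regulators (27 of 30 measured) and outputs (28 of 29 measured), at the brightest probe of each gene. With fenofibrate 1 regulator rose and 4 fell in WT, and 2 rose and 3 fell in LWT. Among outputs 2 rose and 8 fell in WT and 0 rose and 8 fell in LWT. Over all probes 7.65% were called higher and 8.71% lower in WT, and 7.28% and 6.42% in LWT. The median change of the outputs was -0.36 in WT and -0.28 in LWT, that of the regulators -0.04 and -0.06, and that of all probes -0.0026 and -0.012. Usp2, a deubiquitinase under clock control, fell in both (-0.75 ± 0.16 and -0.94 ± 0.15, limma adjusted p = 0.00113 and 5.11e-05). Lpin1, a phosphatidate phosphatase, fell in both as well (-1.25 ± 0.22 and -1.51 ± 0.21), as did Avpr1a, a vasopressin receptor (-1.67 ± 0.30 and -1.32 ± 0.28), Cys1 (-1.02 ± 0.22 and -0.98 ± 0.21) and Rgs16, a regulator of G-protein signalling (-2.09 ± 0.65 and -1.85 ± 0.62). Insig2, a brake on sterol synthesis, rose in WT (2.24 ± 0.50), and Nfil3, the repressor at D-boxes, fell in LWT (-0.95 ± 0.20).

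In the knockouts, 0 regulators rose and 1 fell in LKO against LWT on vehicle, and 0 outputs rose and 2 fell, where 4.42% of all probes were called (1.2% higher and 3.23% lower). They were Wdr5 (-0.52 ± 0.08), Gys2, the liver glycogen synthase (-0.93 ± 0.17), and Wee1, a cell cycle kinase (-0.89 ± 0.21). In KO against WT 1 regulator rose and 5 fell, and 2 outputs rose and 6 fell, where 25.1% of all probes were called (10.9% higher and 14.2% lower), a share near that of the lists. Gys2 (-1.45 ± 0.18) and Wee1 (-1.67 ± 0.23) were lower here as well, with Elovl3 (-2.19 ± 0.64), a fatty acid elongase, and Rgs16 (-2.23 ± 0.70). Insig2 (1.82 ± 0.54) and Avpr1a (1.43 ± 0.32) were higher.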

How the data were processed

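Liver RNA of 34 mice was measured on one-colour Agilent arrays. The deposited scanner files hold spot intensities that Agilent Feature Extraction 10.10.1.1 had background-subtracted, per the file headers. The deposited value table holds log2 values that the authors had normalized, with limma named in the submitters' processing notes, and it was used as an alternative. Here spots flagged as outliers were set missing, the processed signals of the spots of a probe were averaged, and the average was taken to log2. The 75th percentile of each array was then set as 0. Among tested probes 213 values of a probe on an array were missing for this reason.

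Probes well above background on all arrays of at least 1 group were kept (31058 of 55681). limma 3.58.1 in R 4.3.3 was fitted over all 34 arrays and 8 groups, with 15 comparisons and p-values adjusted by Benjamini-Hochberg over all tested probes. The fit was tested on simulated data. Every probe of the members was shown. Other clock genes were named where their brightest probe was called in WT or LWT with fenofibrate or in a knockout on vehicle, at most 6 a comparison, the largest change first. Likeness was the Pearson correlation of deviations from group means, giving the 5 highest and 3 lowest genes outside the members, of which some are not reported here. The members and lists were chosen with earlier results of these data known. Precision is limited by 3 to 5 arrays a group.

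Same-numbered mice deviated together, with every correlation above 0.1, in LKO against LWT on vehicle (0.113 to 0.294) and in KO against WT on vehicle (0.115 to 0.414), and there the replicate block was used beside the results. The labels name no pairs. In LKO against LWT 3 of 4 pairs shared a slide, and in KO against WT 1 of 3, on slide 1. The part of the slide in these correlations was not tested. The block was fitted over all 34 arrays. In all, 14 alternative settings and 34 fits that left out 1 array each were run.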

Additional observations from a re-analysis of the deposited data

Results flagged for a closer look

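Single mice stood apart from their group in 8 of 91 tests by Dixon's criterion, each of 1 probe in 1 group of 4 or 5 mice. Chance alone gives about 1 in 20 for a single test. The same mice enter the tests of all 13 probes, so the 91 tests are not independent. At the dim Per1 probe A_55_P2019327, replicate 3 of LWT vehicle (-3.19) and replicate 3 of LKO vehicle (-2.91) lay above their groups. Replicate 3 of LKO vehicle also lay below its group for Per3 (-2.71) and at Cry2 probe A_55_P1953708 (1.34). Replicate 1 of LWT vehicle was low at Cry2 probe A_55_P2016540 (3.67), and replicate 1 of WT vehicle, on slide 1, was low for Cry1 (-5.19). For Npas2, replicate 1 of WT fenofibrate (-4.50) and replicate 4 of LWT fenofibrate (-4.87) were high, and the latter was below background.

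A tested difference between genotypes drew attention to 4 values, all by limma. The Per1 response at A_55_P1970033 differed by -0.65 between LWT and LKO and by -0.54 between WT and KO. The whole-body deletion differed from the liver deletion on vehicle by -0.62 at that Per1 probe and by -1.81 at Nr1d2 probe A_55_P2148534.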

How the results depend on the processing

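Counts of called clock probes kept within 1.5 times of their values, except in these cases, and the cause was not tested. The share of all probes called in each setting is not reported beside these counts or those of the fits below. A shift in a count can therefore not be assigned to the clock genes. For fenofibrate in WT (3 called), 1 was called with only the groups compared and 6 with Arntl as a covariate. In LWT (2), 1 was called with no filter on dim probes or only the groups compared, and 4 with Arntl as a covariate. For LKO against LWT on vehicle (0), 1 was called in the authors' value table, on probes detected on all 34 arrays, with one probe per gene, with the replicate block, with only the groups compared, with trend and robust moderation and without the 3 arrays of slide 1, and 2 with Arntl as a covariate. On fenofibrate (3), 5 were called with slide as a block and 6 with Arntl as a covariate. For the drug effect in WT minus KO (1), 2 were called in the value table and with the replicate block, 0 with no filter, only the groups compared or no slide 1, and 3 with Arntl as a covariate. For the KO effect minus the LKO effect on vehicle (2), 1 was called with no filter or without slide 1, and for the mean drug effect (5), 3 with one probe per gene.

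Leaving out 1 array gave 2 to 3 calls for fenofibrate in WT, 1 to 3 calls in LWT and 0 in every fit for LKO and KO. It gave 0 to 1 for LKO against LWT on vehicle and 3 to 4 on fenofibrate, 3 to 4 for KO against WT on vehicle and 3 to 5 on fenofibrate, 0 to 1 for WT minus KO, 1 to 2 for the KO effect minus the LKO effect and 3 to 6 for the mean drug effect. With the replicate block, counts were 4 for the drug in WT, 2 in LWT, 4 for KO against WT on vehicle and 5 on fenofibrate. By their labels, mice share only a number in every comparison. No called value reversed its sign. Called pairs numbered 19 with slide removed, 16 in the value table and 18 without slide 1. The covariate fit and the pairs without slide 1 were chosen after seeing the data.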
